A study of Oryza sativa Japonica Group and Oryza sativa Indica Group with 20 samples.

Results

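The 50 rice loci described here had higher transcript levels in callus that failed to regenerate (TF) than in subcultured callus (T2) in both cultivars of the series. They were chosen from the values themselves. Of 54170 loci in the table, 22913 had at least 1 FPKM in at least 2 of 10 libraries, and 50 of these had an (FPKM + 1) ratio of TF over T2 of at least 4 in TNG67 and in IR64. FPKM, the unit of the deposited values, is the number of fragments scaled by locus length and by the mapped fragments in a library. The difference between TF and T2 is therefore how the loci were chosen and is given as a description, with no test.

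The groups were failed callus (TF), successfully regenerating callus (TS), subcultured callus (T2), newly induced callus (T1) and the embryo (T0), in the japonica cultivar Tainung 67 (TNG67) and the indica cultivar IR64. T1 and T2 grew on medium with the synthetic auxin 2,4-D at 2.5 mg/L, and TF and TS on regeneration medium that held a cytokinin, BAP at 2 mg/L, and little auxin, NAA at 0.02 mg/L. All calli came from seeds sown on the 2,4-D medium, per the labels' protocols, and TF and TS differ by outcome as labelled. Each stage of each cultivar was 1 RNA library, 10 in all, and nothing in the labels says how many calli or cultures went into it, so a value of 1 cultivar at 1 stage has no replicate.

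A callus is a mass of plant cells that divide without forming organs. Auxin in the medium keeps such cells dividing, and a medium rich in cytokinin and poor in auxin lets shoots form from some of them. What the failed calli looked like, and at which age they were collected, is not given in the labels.

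The table pairs its locus identifiers with no gene names, and none of the 54170 matched the RefSeq table used here (assembly ASM3414082v1). Loci appear here under their identifiers, with the chromosome number these contain and no roles, and no list of marker genes for other cell types was matched. Depth was unknown, since FPKM values hold no read counts. Library sums of FPKM were 602209 to 1063007 in 9 libraries and reached 3792962 in the IR64 embryo, and the median of all loci tested ran from 6.56 to 7.07 FPKM over the 10 libraries. In bulk libraries, fewer cells of a type and less RNA per cell cannot be told apart.

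**Figure D1:**
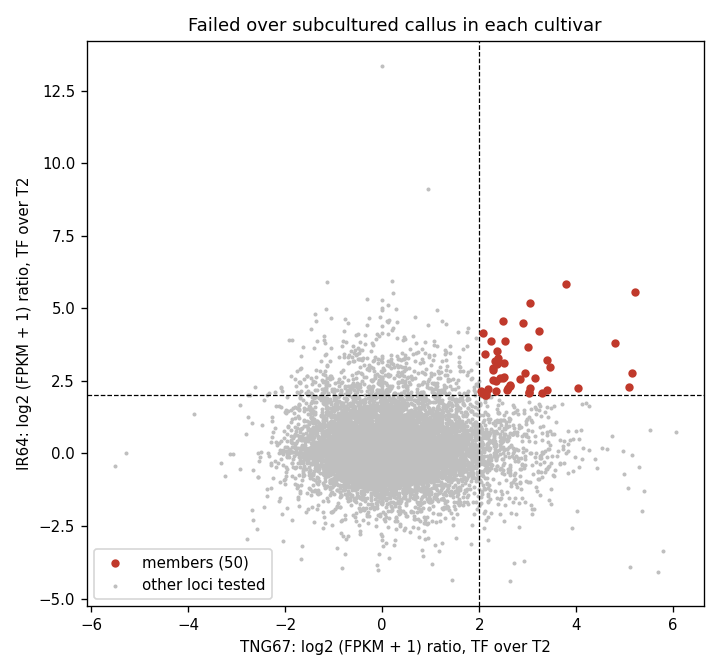
Log2 (FPKM + 1) ratio of TF over T2 in TNG67 (horizontal) and IR64 (vertical), 1 point per locus tested, with the 50 members in red and dashed lines at the 4-fold threshold. The members fill the upper right corner by choice, and the other loci past the threshold pass it in 1 cultivar alone.

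In TNG67, 546 loci (2.38% of those tested) were at least 4-fold higher in TF than in T2, and in IR64 592 (2.58%). The 50 shared loci (0.218% of those tested) made up 9.16% of the TNG67 list and 8.45% of the IR64 list. Members had a median of 22.9 FPKM in TNG67 TF, against 1.59 in TNG67 T2, and of 54.6 FPKM in IR64 TF, against 7.02 in IR64 T2. Their levels in TF spanned 3.39 to 789 FPKM in TNG67, and 4.68 to 2417 FPKM in IR64. The filter on low values did not rest on TF alone, since 50 of 50 members reached 1 FPKM in at least 2 of the other 8 libraries, as did 98.5% of all loci tested. The number of loci depended on the pseudocount of 1: with 0.1 added, 172 loci met the rule, and with 5 added, 12 did.

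LOC_Os10g21670 on chromosome 10 had the largest change by the smaller of its ratios. It stood at 355 FPKM in TNG67 TF, against 8.61 in TNG67 T2, and at 409 FPKM in IR64 TF, against 7.68 in IR64 T2. Its T0, T1 and TS levels were 1315, 14.2 and 10.8 FPKM in TNG67, and 18.1, 6.41 and 26.5 FPKM in IR64. The failed calli of the cultivars were thus close to each other in level, whereas their embryos were far apart.

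LOC_Os04g52260 on chromosome 4 stood at 23.0 FPKM in TNG67 TF, against 0.737 in TNG67 T2, and at 161 FPKM in IR64 TF, against 1.86 in IR64 T2. Its T0, T1 and TS levels were 355, 2.39 and 1.01 FPKM in TNG67, and 236, 1.93 and 4.85 FPKM in IR64. This locus was highest in both embryos, and failed callus came next.

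LOC_Os06g40170 and LOC_Os06g40180 are adjacent identifiers on chromosome 6. LOC_Os06g40170 was at 13.0 FPKM in TNG67 TF, against 0.697 in TNG67 T2, and at 37.1 FPKM in IR64 TF, against 0.0548 in IR64 T2. LOC_Os06g40180 was at 18.4 FPKM in TNG67 TF, against 2.46 in TNG67 T2, and at 33.7 FPKM in IR64 TF, against 0.470 in IR64 T2. Both were low in the TNG67 embryo, at 0.0707 and 0.187 FPKM, and stood at 8.25 and 3.00 FPKM in the IR64 embryo. Successful calli were low for both, at 1.46 and 1.60 FPKM in TNG67 and at 0.329 and 0.530 FPKM in IR64. Failed callus was the highest of the 5 stages for this pair in both cultivars.

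Among the other members with large changes, some were low in failed callus. LOC_Os04g25060 on chromosome 4 was at 12.5 FPKM in TNG67 TF, against 0.433 in TNG67 T2, and at 18.9 FPKM in IR64 TF, against 0.0679 in IR64 T2. LOC_Os08g42350 on chromosome 8 was at 16.5 FPKM in TNG67 TF, against 0.668 in TNG67 T2, and at 16.3 FPKM in IR64 TF, against 0.854 in IR64 T2. LOC_Os04g25060 was at 3.00 FPKM in TNG67 TS and at 0.0641 in IR64 TS, and LOC_Os08g42350 at 1.09 and 1.51, so successful callus was low for both. LOC_Os01g51570 on chromosome 1 was at 12.1 FPKM in TNG67 TF, against 0.745 in TNG67 T2, and at 133 FPKM in IR64 TF, against 5.04 in IR64 T2. Its failed calli differed in level between the cultivars, while those of the other loci named with it were close.

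**Figure D2:**
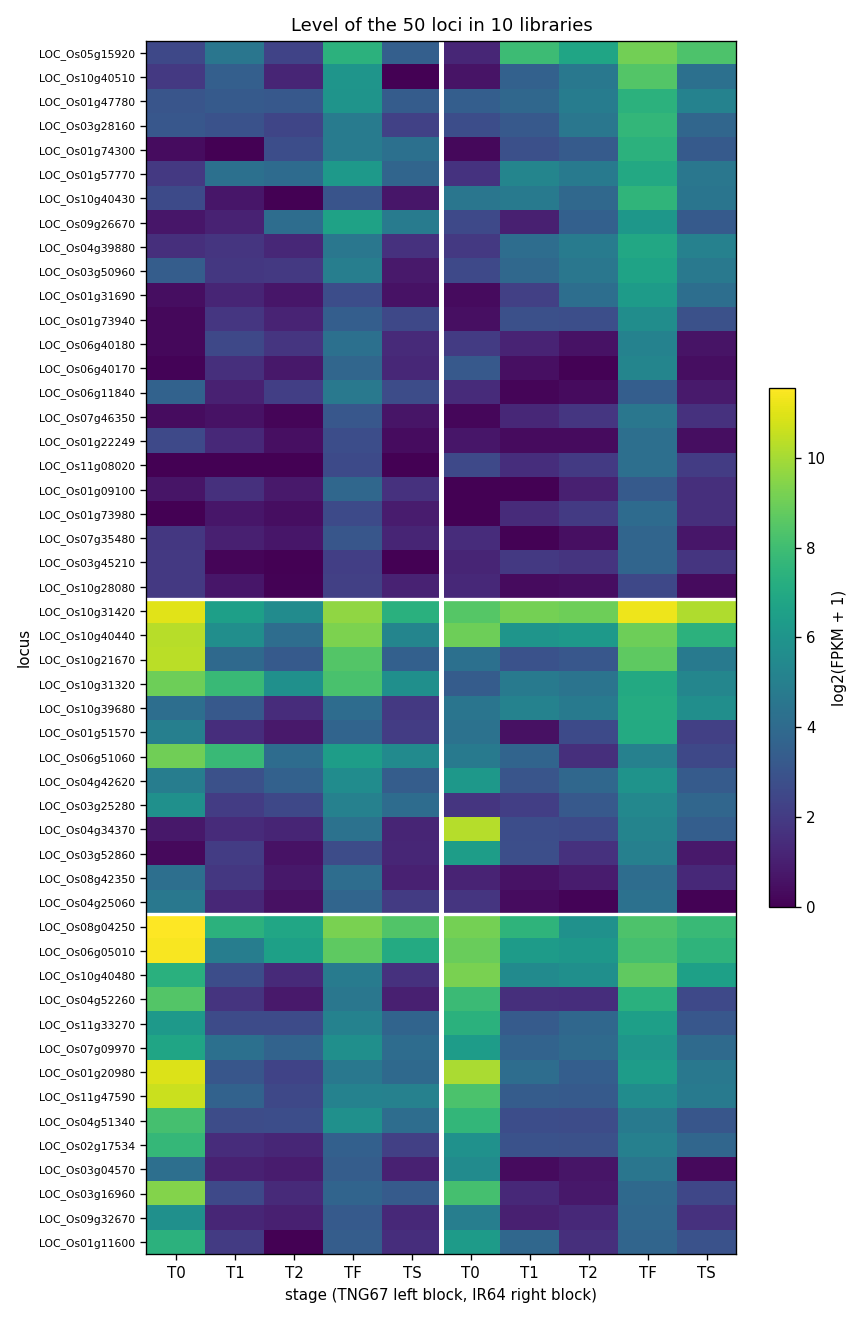
Level of each member as log2(FPKM + 1), 1 row per locus and 1 column per library, TNG67 left and IR64 right, with white lines between loci with TF above the embryo in both cultivars (23, top), split loci (13) and loci with TF below the embryo in both (14, bottom). TF stands out from T1, T2 and TS in most rows, which the choice of the loci fixes in part. The bottom block is brightest at T0.

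Set beside the embryo, the members were sorted into 3 groups by any difference between TF and T0, with 1 library each per cultivar. Some loci lie close to the cut, such as LOC_Os10g40440, at 519 FPKM in IR64 TF and 508 in IR64 T0. TF was above T0 in both cultivars for 23 of 50 loci (35.2% of all loci tested), below it in both for 14 (36.6%), and above it in only 1 of the cultivars for 13, of which 10 had the higher embryo in TNG67 and 3 in IR64. TF was the highest of the 5 stages in both cultivars for the same number, 23 of 50, a pattern seen in 4.95% of all loci tested. It was at least 4-fold above T0 for 17 members in TNG67 (5.81% of all loci tested), for 29 in IR64 (6.56%) and for 14 in both (2.64%). It was at least 4-fold below T0 for 12 in TNG67 (7.40%), for 6 in IR64 (4.72%) and for 5 in both (2.78%). Among the calli alone TF was the highest in both cultivars for 48 of 50 (10.4% of all loci tested), which the choice of the loci fixes in part. The counts of TF against T0 and over the 5 stages also share the TF libraries with the rule. Their shares describe the members and are not a separate result.

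The 23 loci with TF above the embryo in both cultivars had medians of 13.4 FPKM in TNG67 TF, against 1.21 in TNG67 T2, and of 49.5 FPKM in IR64 TF, against 5.83 in IR64 T2. Their embryo medians were 2.72 FPKM in TNG67 and 1.64 in IR64. LOC_Os05g15920 on chromosome 5 was the most abundant of them in failed callus, at 171 FPKM in TNG67 TF, against 4.03 in TNG67 T2, and at 551 FPKM in IR64 TF, against 111 in IR64 T2. In IR64 it was also high at T1 and TS, at 241 and 320.2 FPKM, while TNG67 had 22.1 and 10.2 FPKM there. Failed callus stood further above the other calli in TNG67 than in IR64 for this locus.

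Several loci of the same group had failed callus well above the other 4 stages in both cultivars. LOC_Os01g47780 on chromosome 1 was at 63.0 FPKM in TNG67 TF, against 7.96 in TNG67 T2, and at 169 FPKM in IR64 TF, against 28.1 in IR64 T2. Its T0, T1 and TS levels were 7.36, 8.71 and 9.35 FPKM in TNG67, and 9.96, 13.4 and 33.8 FPKM in IR64. In TNG67 these other stages were nearly level. LOC_Os07g46350 on chromosome 7 was at 7.71 FPKM in TNG67 TF, against 0.128 in TNG67 T2, and at 23.1 FPKM in IR64 TF, against 2.50 in IR64 T2. It stayed at or under 0.572 FPKM in T0, T1 and TS of TNG67 and at or under 2.09 FPKM in those of IR64.

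LOC_Os09g26670 on chromosome 9 was at 98.6 FPKM in TNG67 TF, against 16.7 in TNG67 T2, and at 68.8 FPKM in IR64 TF, against 10.7 in IR64 T2. Its T0, T1 and TS levels were 0.614, 1.15 and 26.9 FPKM in TNG67, and 4.82, 1.02 and 8.61 FPKM in IR64. Subcultured and successful callus thus lay between newly induced and failed callus for this locus in both cultivars. LOC_Os01g57770 on chromosome 1 was at 73.4 FPKM in TNG67 TF, against 15.5 in TNG67 T2, and at 125 FPKM in IR64 TF, against 26.0 in IR64 T2. Its embryos were at 2.74 FPKM in TNG67 and 2.28 in IR64, below every callus of their cultivar.

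The 14 loci with TF below the embryo in both cultivars had embryo medians of 246 FPKM in TNG67 and 219 in IR64. Their medians were 25.5 FPKM in TNG67 TF, against 2.84 in TNG67 T2, and 57.5 FPKM in IR64 TF, against 7.55 in IR64 T2. LOC_Os08g04250 on chromosome 8 had the highest mean embryo level of all 50 members, at 3006 FPKM in TNG67 and 566 in IR64. It was at 590.5 FPKM in TNG67 TF, against 115 in TNG67 T2, and at 321 FPKM in IR64 TF, against 56.5 in IR64 T2. Its successful calli stood at 343 and 227 FPKM, nearer to failed than to subcultured callus on the log2 scale.

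LOC_Os06g05010 on chromosome 6, with embryos at 2822 FPKM in TNG67 and 483 in IR64, was at 407 FPKM in TNG67 TF, against 93.4 in TNG67 T2, and at 282 FPKM in IR64 TF, against 68.5 in IR64 T2. LOC_Os01g20980 on chromosome 1, with embryos at 1942 and 1073 FPKM, was at 23.7 FPKM in TNG67 TF, against 4.09 in TNG67 T2, and at 83.3 FPKM in IR64 TF, above every other IR64 callus. For LOC_Os01g20980 failed callus was far below the embryo in both cultivars, while for LOC_Os06g05010 the gap to the embryo was wide in TNG67 and narrower in IR64. LOC_Os11g47590 on chromosome 11 was at 33.9 FPKM in TNG67 TF, against 32.3 in TNG67 TS and 4.59 in TNG67 T2, so failed and successful callus were almost equal there. In IR64 it was at 48.1 FPKM in TF, against 25.1 in TS and 8.73 in T2.

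The 13 split loci include the member most abundant in failed callus. LOC_Os10g31420 on chromosome 10 was at 789 FPKM in TNG67 TF, against 47.2 in TNG67 T2, and at 2417 FPKM in IR64 TF, against 505 in IR64 T2. Its T0, T1 and TS levels were 2077, 91.0 and 159 FPKM in TNG67, and 363, 570.3 and 1169 FPKM in IR64. The embryo was its highest stage in TNG67 and its lowest in IR64. LOC_Os04g34370 on chromosome 4, which has 2 rows in the table that were summed, showed the opposite split, with embryos at 0.700 FPKM in TNG67 and 1227 in IR64. It was at 19.7 FPKM in TNG67 TF, against 1.33 in TNG67 T2, and at 36.0 FPKM in IR64 TF, against 5.12 in IR64 T2.

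Members lay unevenly over the chromosomes. Chromosome 10 held 9 of 50 (18.0%), where 5.21% of the loci tested lie, and chromosome 1 held 11 (22.0%), with 14.2% of the loci tested. Chromosome 12 held 0 members, with 5.59% of the loci tested, and chromosome 2 held 1, with 11.6%. In the order of the identifiers, 10 members lay within 10 listed loci of another member, in 4 runs. This is a description of position, and neighbouring loci were not treated as independent. Reads of near-identical neighbours can be lost, since the authors kept unique alignments only, per the labels' protocols, and how far the loci of a run resemble each other in sequence was not tested.

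**Figure D3:**
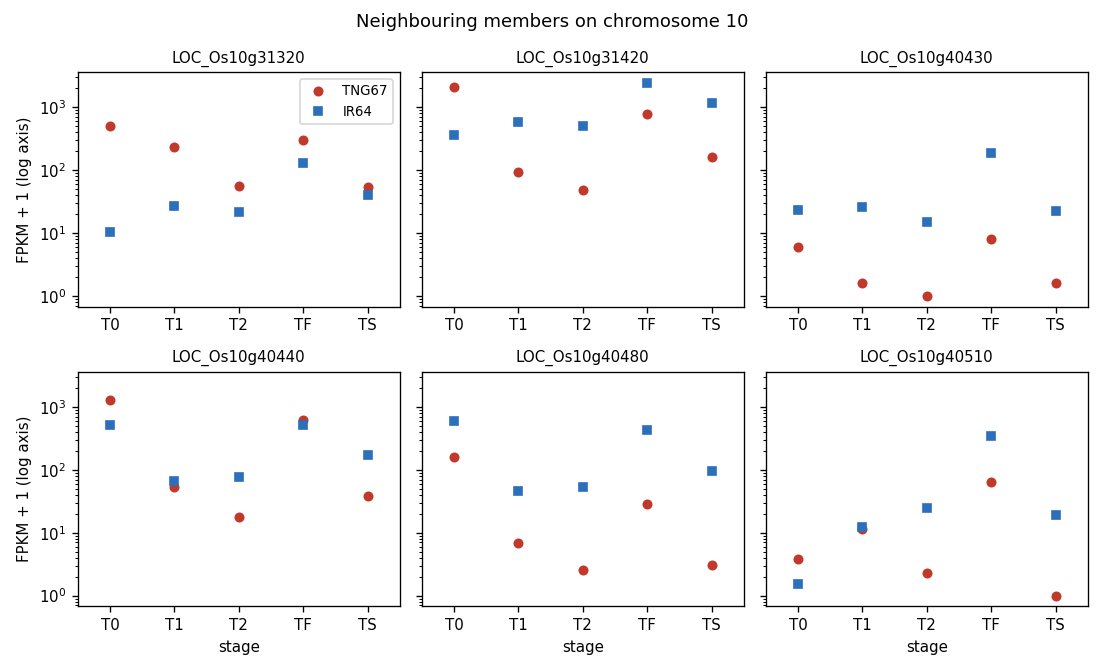
FPKM + 1 on a log axis at each stage for the 6 members that lie near another member on chromosome 10, with circles for TNG67 and squares for IR64, 1 library per point. TF is above T1, T2 and TS in both cultivars in 6 of 6 panels, as for 48 of 50 members, which the choice of the loci fixes in part. The embryo is high in some panels and low in others.

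The longest run was on chromosome 10, where 4 of 8 consecutive listed loci were members. LOC_Os10g40440 was at 615 FPKM in TNG67 TF, against 16.5 in TNG67 T2, and at 519 FPKM in IR64 TF, against 74.4 in IR64 T2. LOC_Os10g40480 was at 27.4 FPKM in TNG67 TF, against 1.58 in TNG67 T2, and at 422 FPKM in IR64 TF, against 53.0 in IR64 T2. Both were also high in the embryos, at 1265 and 159.7 FPKM in TNG67 and at 508 and 603 FPKM in IR64. LOC_Os10g40510 was at 63.3 FPKM in TNG67 TF, against 1.33 in TNG67 T2, and at 348 FPKM in IR64 TF, against 23.8 in IR64 T2. LOC_Os10g40430 was at 7.09 FPKM in TNG67 TF, where TNG67 T2 was listed at 0, and at 187 FPKM in IR64 TF, against 13.8 in IR64 T2. These last loci were low in the TNG67 embryo, at 2.77 and 5.10 FPKM.

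The other 4 loci between them had log2 changes of TF over T2 of 0.21 (LOC_Os10g40450), 0.32 (LOC_Os10g40460), 0.36 (LOC_Os10g40470) and 0.74 (LOC_Os10g40490) in TNG67, and of 0.55, -1.97, -0.32 and 0.11 in IR64. The 4 members had changes of 3.02 to 5.14 in TNG67 and of 2.79 to 3.82 in IR64. The rule separates members from the others by this same change, and the others were at or under 0.933 FPKM in TNG67 TF and T2, where the pseudocount of 1 keeps a ratio small, so nothing is read from the contrast. A second pair on chromosome 10, LOC_Os10g31320 and LOC_Os10g31420, lay 10 listed loci apart, counting both. LOC_Os10g31320 was at 299.8 FPKM in TNG67 TF, against 55.1 in TNG67 T2, and at 130.0 FPKM in IR64 TF, against 20.6 in IR64 T2. LOC_Os10g31330 beside it met the rule in TNG67 alone, with log2 changes of 2.39 in TNG67 and 1.67 in IR64.

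Another pair was on chromosome 1, and the last is the chromosome 6 pair described above. LOC_Os01g73940 was at 9.83 FPKM in TNG67 TF, against 1.21 in TNG67 T2, and at 49.5 FPKM in IR64 TF, against 5.83 in IR64 T2. LOC_Os01g73980 was at 4.98 FPKM in TNG67 TF, against 0.351 in TNG67 T2, and at 15.3 FPKM in IR64 TF, against 2.88 in IR64 T2. Both had embryos at or under 0.387 FPKM, with LOC_Os01g73980 listed at 0 in both. The 3 loci between them had log2 changes under 1 in both cultivars.

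The rule compared TF with T2, which grew on another medium. Successful callus, on the medium of TF, gives a further level for the same loci, and effects of medium and outcome were not tested. TF was above TS in both cultivars for 50 of 50 members, as for 18.9% of all loci tested. It was at least 4-fold above TS in TNG67 for 27 of 50, where 2.43% of all loci tested were, in IR64 for 32, against 2.68%, and in both for 18, against 0.131%. For 9 members neither cultivar reached 4-fold. These comparisons share the TF libraries with the rule, so the shares describe the members and are not a separate result. Members had a median log2 change of TF over TS of 2.17 in TNG67 (median of all loci tested -0.08) and of 2.26 in IR64 (-0.08).

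**Figure D4:**
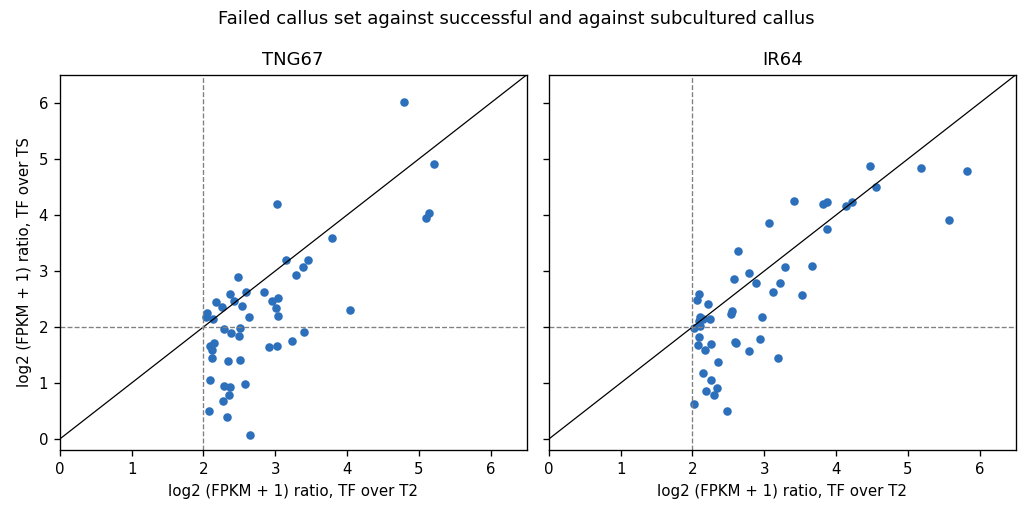
Log2 (FPKM + 1) ratio of TF over TS (vertical) against that of TF over T2 (horizontal) for the 50 members, TNG67 left and IR64 right, with the line of equal ratios and dashed lines at 4-fold. Points below the line are loci with TS above T2, and most members lie on or under it.

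Successful callus stayed near subcultured callus for most members, as it did for most loci tested. TS was at least 4-fold above T2 in neither cultivar for 99.8% of all loci tested. T2 and TF, the ends of the scale used next, chose the loci, so the place of TS on it is a description. On a log2 scale with T2 at 0 and TF at 1, TS had a median place of 0.204 in TNG67 and 0.112 in IR64, and TS passed the midpoint for 8 of 50 members in TNG67 and for 7 in IR64. TS was at least 4-fold above T2 for 1 member in TNG67, where 0.183% of all loci tested were, and for 0 in IR64, against 0.0218%. TS was above T2 by any amount in 38 of 50 members in TNG67 (54.8% of all loci tested) and in 35 in IR64 (53.3%). By group, this place had medians of 0.419 in TNG67 and 0.330 in IR64 for loci with TF below the embryo in both, and of 0.162 and 0.032 for loci with TF above it in both. TF was at least 4-fold above TS in both cultivars for 12 of the 23 loci with TF above the embryo and for 3 of the 14 below it. The TF libraries set both the groups and these measures, so the difference between the groups is a description.

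LOC_Os10g40510 was the member with the largest log2 change of TF over TS in TNG67, where TS was listed at 0, against 63.3 FPKM in TF. In IR64 the same locus was at 348 FPKM in TF, against 18.1 in TS. LOC_Os03g50960 on chromosome 3 was at 30.1 FPKM in TNG67 TF, against 0.705 in TNG67 TS, and at 102 FPKM in IR64 TF, against 24.5 in IR64 TS. LOC_Os01g74300 on chromosome 1 behaved differently in the cultivars, at 26.6 FPKM in TNG67 TF, against 18.4 in TNG67 TS, and at 172 FPKM in IR64 TF, against 8.66 in IR64 TS. Its difference between failed and successful callus was thus small in TNG67 and large in IR64. That contrast rests on 1 library per point and was not tested.

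Against newly induced callus, TF was at least 4-fold higher in TNG67 for 31 of 50 members (2.75% of all loci tested), in IR64 for 42 (3.82%) and in both for 29 (0.515%). This comparison too shares the TF libraries with the rule, so the shares only describe the members. TF was below T1 in LOC_Os06g51060 on chromosome 6, at 86.5 FPKM in TNG67 TF, against 226 in TNG67 T1, and in LOC_Os01g11600 on chromosome 1, at 12.4 FPKM in IR64 TF, against 13.5 in IR64 T1. These were the only members with TF below another callus of their cultivar in the 8 callus libraries.

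T1 and TS were not used by the rule and could be compared over both cultivars. The test was limma on log2(FPKM + 1) of all 10 libraries, with cultivar and stage as terms, and p-values were adjusted over all 22913 loci by the Benjamini-Hochberg method. For TS against T1 it called 0 of 50 members and 0 of all loci (0.00%), with 6 members and 1892 loci at an unadjusted p under 0.05. The largest member change was in LOC_Os09g26670, at 26.9 FPKM in TNG67 TS, against 1.15 in TNG67 T1, and at 8.61 FPKM in IR64 TS, against 1.02 in IR64 T1. Its fitted log2 change was 2.97 (SE 0.72), and limma's adjusted p was 0.508. Over the members the median log2 change was 0.27, with 32 positive and 18 negative, beside 0.07 over all loci. With 1 library per cultivar and stage, a count of 0 does not show that the stages were alike.

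Newly induced and successful callus were then set against the embryo, with the contrast taken over the 6 libraries of T0, T1 and TS. The fit also held TF and T2, which chose the loci, so its spread and p-values draw on them. In limma's test, 23 of 50 members passed (28.7% of all loci tested): 20 were lower in callus, where 15.9% of all loci were, and 3 were higher, where 12.8% were. The remaining 27 did not pass. On the 6 libraries alone, 17 members passed, 15 lower and 2 higher, where 9.46% of all loci did. The numbers of members called higher and lower shifted when 1 library was left out, and so did the share of all loci called. Leaving a library out leaves its stage with 1 library. T0 was at least 4-fold above both T1 and TS for 20 members in TNG67 (6.08% of all loci tested), for 17 in IR64 (6.30%) and for 13 in both (2.27%). T1 and TS were each at least 4-fold above T0 for 0 members in TNG67 (3.17%), for 6 in IR64 (3.87%) and for 0 in both (0.642%). The median log2 change over the members was -1.17, beside 0.04 over all loci tested. Members were chosen for a T2 below TF, and TS was at least 4-fold from T2 in 1 member, so the lean towards lower levels in callus is not independent of the choice.

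**Figure D5:**
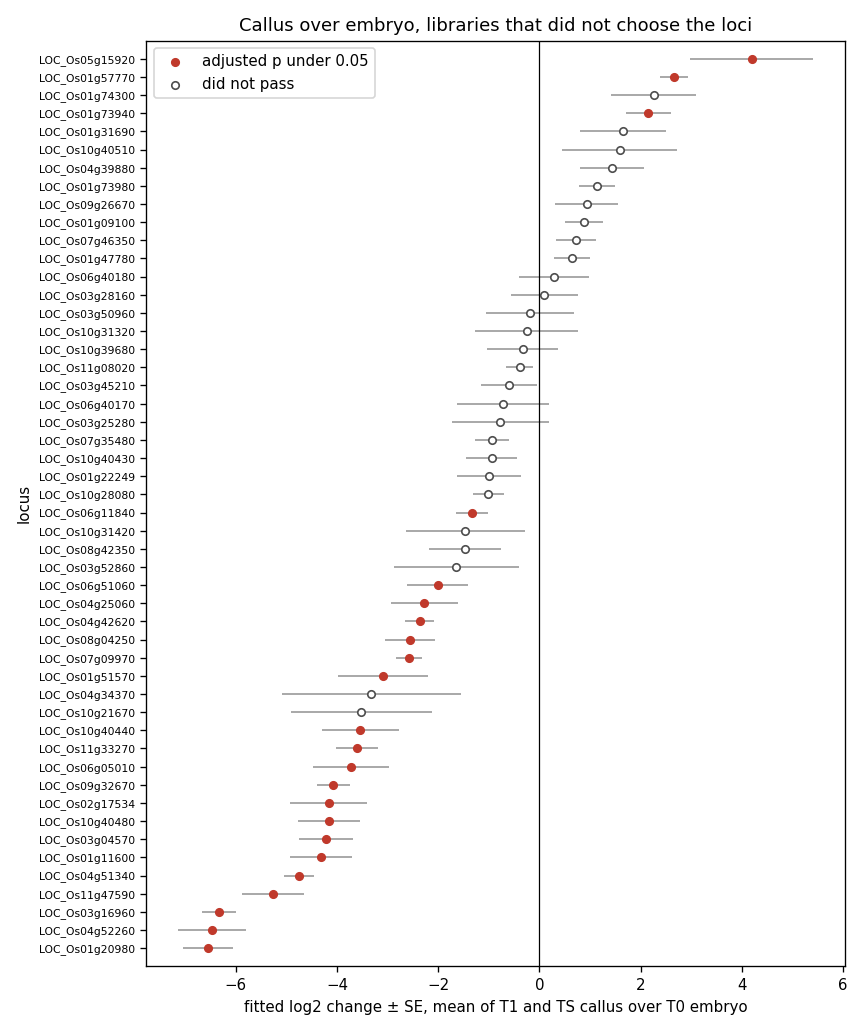
Fitted log2 change (± SE, limma) of the mean of T1 and TS callus over the T0 embryo for the 50 members, 1 row per locus, with filled points for an adjusted p under 0.05. The 20 loci called lower lie left of 0 and the 3 called higher lie right of it.

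The largest falls were of loci abundant in both embryos. LOC_Os01g20980 was at 7.55 and 14.3 FPKM in T1 and TS of TNG67, against 1942 in the TNG67 embryo, and at 16.4 and 23.4 FPKM in those of IR64, against 1073 in the IR64 embryo. Its fitted change was -6.55 (log2, SE 0.50), with an adjusted p of 0.00176 in limma. LOC_Os04g52260 fell by 6.47 (SE 0.67, adjusted p of 0.00297 in limma), lower in callus in 4 of 4 pairs of libraries. LOC_Os03g16960 on chromosome 3 was at 4.95 and 8.94 FPKM in T1 and TS of TNG67, against 682 in the TNG67 embryo, and at 1.53 and 4.59 FPKM in those of IR64, against 278 in the IR64 embryo, and fell by 6.34 (SE 0.34, adjusted p of 0.00104 in limma). On the 6 libraries of T0, T1 and TS alone, limma's adjusted p was 0.0238 for LOC_Os01g20980 and LOC_Os04g52260 and 0.0223 for LOC_Os03g16960. Failed callus stood between these calli (T1 and TS) and the embryo for all 3 loci in both cultivars.

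The fall passed limma's test in 14 of the 14 loci with TF below the embryo in both cultivars. It did so in 5 of the 13 split loci and in 1 of the 23 others, LOC_Os06g11840. Those groups were drawn with the embryo libraries, so these counts are a description. Loci that did not pass could also be lower in callus, since 36 of 50 members had a negative fitted change. LOC_Os01g57770 was the firmest of the 3 loci higher in callus, at 18.4 and 12.6 FPKM in T1 and TS of TNG67, against 2.74 in the embryo, and at 37.3 and 22.7 FPKM in those of IR64, against 2.28 in the embryo. Its log2 change was 2.66 (SE 0.27), with an adjusted p in limma of 0.00296, and of 0.0298 on the 6 libraries of T0, T1 and TS alone. LOC_Os05g15920 rose by 4.19 (SE 1.22, adjusted p of 0.0451 in limma) and LOC_Os01g73940 by 2.15 (SE 0.44, adjusted p of 0.0167 in limma). The last calls were unsteady: LOC_Os05g15920 lost its call in 14 of 21 alternatives and LOC_Os01g73940 in 7, with an adjusted p of up to 0.197 and 0.121. On the 6 libraries alone limma gave LOC_Os05g15920 an adjusted p of 0.101 and LOC_Os01g73940 one of 0.0345.

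limma's adjusted p rests here on how far the cultivars depart from a common stage effect, with 4 residual degrees of freedom, and not on the spread between cultures. The count of 23 members called (28.7% of all loci tested) became 13 without the filter on low values (7.13%) and 15 without cultivar as replicate block (12.6%).

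The cultivars were compared in the same 6 libraries. Of 50 members, 3 passed limma's test, close to the share of all loci tested that did (5.16%). Of these, 1 was higher in TNG67, where 3.40% of all loci were, and 2 were lower, where 1.76% were. LOC_Os06g51060 was at 530.5, 226 and 45.1 FPKM in T0, T1 and TS of TNG67, against 26.2, 12.2 and 4.70 FPKM in those of IR64. It was higher in TNG67 in 3 of 3 stages, with a log2 difference of 3.80 and an SE of 0.36 (adjusted p of 0.0103 in limma). LOC_Os10g40430 was at 5.10, 0.623 and 0.601 FPKM in TNG67, against 22.5, 25.2 and 21.1 FPKM in IR64. Its log2 difference was -3.25 and the SE 0.49 (adjusted p of 0.0338 in limma). LOC_Os11g08020 on chromosome 11 was at 0.0253 and 0.0222 FPKM in T0 and T1 of TNG67 and listed at 0 in TS, against 4.82, 1.81 and 3.21 FPKM in IR64. Its log2 difference was -2.01 and the SE 0.33 (adjusted p of 0.0413 in limma).

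These calls rest on 2 residual degrees of freedom. LOC_Os06g51060 lost its call in 4 of 17 alternatives, LOC_Os10g40430 in 6 of 17 and LOC_Os11g08020 in 6 of 16. The count of 3 (5.16% of all loci tested) was 0 without TNG67 T1 or without IR64 T1, where limma called 0 of all loci too. It was 1 without TNG67 TS (0.694%) or without IR64 TS (0.781%), and 13 without the TNG67 embryo (18.7%) or without the IR64 embryo (18.5%). Without the filter on low values it was 0, as for all loci. With all 10 libraries it was 9 of 50 (18.0%), below the 27.3% of all loci called there. The reference was a japonica genome for IR64 too, per the labels' protocols, so a level in IR64 and how well its reads map cannot be told apart.

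Failed callus was the stage at which IR64 exceeded TNG67 by any amount most often among the members. At 4-fold, failed and successful callus had the same count, 12. IR64 TF was above TNG67 TF in 40 of 50 (49.8% of all loci tested), and at least 4-fold above it in 12, where 3.44% of all loci tested were, while TNG67 TF was at least 4-fold above IR64 TF in 0 (3.74%). The median log2 difference of TNG67 over IR64 was -1.23 at TF, -0.76 at T2, -0.34 at TS, -0.25 at T1 and 0.57 at T0. Since TF and T2 chose the loci, the values at these stages are a description. At T0, TNG67 was at least 4-fold above IR64 for 11 members (5.84% of all loci tested) and IR64 above TNG67 for 4 (4.56%). At T1, TNG67 was at least 4-fold above IR64 for 2 members (5.70%) and IR64 above TNG67 for 7 (4.71%). At TS the counts were 1 with TNG67 higher (6.97%) and 12 with IR64 higher (7.05%).

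Failed callus was also set beside the calli of the other cultivar. TNG67 TF was above the highest of IR64 T1, T2 and TS in 40 of 50 members, a position that 32.7% of all loci tested had. IR64 TF was above the highest of TNG67 T1, T2 and TS in 47 of 50 (38.1%). The choice of the loci by TF and T2 in both cultivars fixes these positions in part, so they are a description. IR64 T2 was at least 4-fold above TNG67 T2 in 11 members (6.46% of all loci tested), among them LOC_Os05g15920, LOC_Os10g31420 and LOC_Os10g40480, and TNG67 T2 above IR64 T2 in 1 (6.07%). In LOC_Os05g15920 the TNG67 failed callus, at 171 FPKM, was above IR64 T2, at 111 FPKM, but below IR64 T1 and TS.

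At the threshold, the members just inside were LOC_Os03g45210, with (FPKM + 1) ratios of TF over T2 of 4.39 in TNG67 and 4.06 in IR64, and LOC_Os06g05010, with 4.32 and 4.08. Just outside were LOC_Os09g34920, with 3.97 and 5.67, and LOC_Os07g37240, with 3.95 and 4.996. LOC_Os09g34920 was at 6.95 FPKM in TNG67 TF, against 1.00 in TNG67 T2, and at 28.1 FPKM in IR64 TF, against 4.13 in IR64 T2. Its levels resembled those of low members, so the edge of the group is not a gap in the data. At 2-fold in place of 4-fold, 426 loci met the rule, and at 8-fold 7 did.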

How the data were processed

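The 10 RNA libraries were used, 1 per stage and cultivar, and the 10 bisulfite libraries were not analysed here. Per the labels' protocols, the authors ran FastQC, aligned reads to the Nipponbare genome (IRGSP-1.0) by Bowtie with up to 2 mismatches, dropped reads with several alignments and used TopHat for the FPKM values. The sources used here give no tool versions, gene models or strand setting. The table had 55166 rows, and rows of 968 loci listed more than once were summed (3 members). Depth is unknown, and an exact 0 can be a failed estimate.

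Ratios and tests used log2(FPKM + 1), which understates changes of low loci. limma 3.58.1 in R 4.3.3 was fitted to all 22913 loci, with moderation along an intensity trend and a threshold of 0.05 after Benjamini-Hochberg adjustment, and was tried first on simulated data. The fit for the cultivars used the 6 libraries of T0, T1 and TS. Python 3.11.15, pandas 2.3.3, numpy 2.4.6 and matplotlib 3.10.9 did the rest. The members and lists were chosen with earlier results of these data known. Loci were named by a fixed rule: the largest changes, the highest levels in TF, TS and T0, the strongest calls, the longest run and the threshold. LOC_Os01g47780, LOC_Os07g46350, LOC_Os11g47590, LOC_Os04g34370, LOC_Os01g74300, LOC_Os03g50960, LOC_Os01g11600, LOC_Os06g11840, LOC_Os01g73980, LOC_Os06g40180, LOC_Os09g26670 and the neighbours of members that are no members were named after their values were seen. Other pseudocounts, filters, scalings, models and each library left out were tried as alternatives. Gene lists and tissue markers planned by product name could not be matched.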

Additional observations from a re-analysis of the deposited data

Results flagged for a closer look

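In 3 of 50 members both calli outside the rule (T1 and TS) moved at least 2-fold from the embryo in opposite directions in the cultivars, a pattern that 1.35% of all loci tested had. The difference between the cultivars was not tested. LOC_Os03g50960 had log2 changes of T1 and TS over T0 of -1.56 and -2.65 in TNG67, and of 1.34 and 2.12 in IR64, so that the mean change in TNG67 minus that in IR64 was -3.83. LOC_Os10g31320 had changes of -1.15 and -3.23 in TNG67, and of 1.39 and 1.96 in IR64, a difference of -3.86. LOC_Os06g40170 went the other way, with changes of 1.45 and 1.20 in TNG67, and of -2.75 and -2.80 in IR64, a difference of 4.10. Its T0, T1 and TS levels were low, at 0.0707, 1.92 and 1.46 FPKM in TNG67, and at 8.25, 0.380 and 0.329 FPKM in IR64. Most of these lie near or under the pseudocount of 1. For each locus, both changes in a cultivar share 1 embryo library.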

How the results depend on the processing

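The number of loci meeting the rule depended on its settings: 172 with a pseudocount of 0.1, 12 with 5, 426 at 2-fold, 7 at 8-fold, 30 with TS and 118 with T1 in place of T2 (18 and 29 of them members). It was 42 to 55 under the other 5 settings. For callus (T1 and TS) against the embryo, the 23 members called (28.7% of all loci) became 13 without the filter (7.13%), 15 with no replicate block (cultivar as the block, 12.6%), 17 on the 6 libraries of T0, T1 and TS (9.46%), and 16 to 27 with 1 library left out (15.2% to 31.2%). For TNG67 against IR64 the 3 members called (5.16% of all loci) became 5 with a pseudocount of 0.1 (7.42%), 0 without the filter (0 of all loci), 9 on all 10 libraries (27.3%), and 0 to 13 with 1 library left out (0 to 18.7%). For TS against T1 limma called 0 members in every setting run (15 of all loci without the filter). No named change reversed its sign. The causes of these differences were not tested. Left out in turn, a library leaves its stage with 1 library, assumed to vary like the others. The labels give no replicate numbers. Unknown depth limits what can be said of loci under 1 FPKM.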
